A study of Mus musculus with 3 samples.

Results

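NUP153 knockdown in mouse embryonic stem (ES) cells was examined here as a single comparison, with the NUP153 KD-1 and NUP153 KD-2 libraries on one side and the control library on the other. Genes were taken as the shared changes when they averaged 100 reads or more across the 3 libraries and when the smaller of their 2 changes, in the direction that KD-1 and KD-2 shared, was largest. The 25 leading genes higher in both knockdowns and the 25 leading genes lower in both are described, out of 12743 genes with that mean and 24421 genes in the deposited counts. Since the rule itself picks genes by their change, the values of these 50 genes are a description, and a call by a test on the same counts adds no independent support.

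RNA-Seq was performed on total RNA depleted of ribosomal RNA, with 1 library from each of 3 cultures of undifferentiated female EL 16.7 ES cells of the background F2:129S1/CastEiJx 129S1. The control cells (genotype label wild type) received a scramble shRNA lentivirus, while the KD-1 and KD-2 cells (genotype label NUP153 knockdown) received lentivirus with shRNA-1 or shRNA-2 against mouse NUP153. All 3 cultures were kept with LIF on γ-irradiated fibroblasts from DR4 mouse embryos and were selected for 2 days with 2 μg/ml puromycin, so control and knockdown cells share the virus, the drug and the feeder cells. Each shRNA was sequenced once and both knockdowns are compared to the same control library, which means that any value particular to that library moves both changes together.

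NUP153 is a nucleoporin of the nuclear basket, the part of the nuclear pore complex that faces chromatin. It takes part in mRNA export and protein import and also contacts chromatin, where it has been linked to gene silencing and to CTCF and cohesin. In ES cells many genes of the germ line are kept nearly silent by DNA methylation and by Polycomb-type repressors, some of which reach their targets through E-boxes, the DNA hexamer bound by helix-loop-helix factors such as MAX.

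Reads on genes numbered from 69839336 to 85258834 per library, and 21164 genes had a read in at least 1 library. Counts below are reads as deposited, given in the order control, KD-1, KD-2. Changes, given in the order KD-1, KD-2, are log2 ratios to control of scaled reads (reads divided by the effective library size from the trimmed mean of M-values, times the mean effective size, plus a pseudocount of 0.5 reads). ES cell markers were abundant in all 3 libraries, and none was at 0. Together 8 of them summed to 4558 CPM (reads scaled to the effective library size) in control, with 4922 in KD-1 against 3378 in KD-2. Feeder fibroblast markers did not follow the knockdown, because their sum was 1288 CPM in control, with 567 in KD-1 against 2393 in KD-2. Of 11 such markers, 0 were higher in both knockdowns and 0 were lower in both.

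Nup153 was checked first. It had 27870, 16451 and 11126 reads, and 54.9, 27.5 and 22.7 RPKM (reads scaled to exon length and library total), in the same order. Both knockdown libraries lay below control, KD-1 at 49.8% of its scaled reads and KD-2 at 38.1%. The counting intervals of 95% ran from 0.488 to 0.508 times control in KD-1 and from 0.373 to 0.390 in KD-2, and the ratio of KD-1 to KD-2 was 1.31 with an interval of 1.27 to 1.34. With a change of -1.01 in KD-1 against -1.39 in KD-2, Nup153 itself had rank 6 among the genes lower in both. It was the only 1 of 31 nuclear pore genes with that mean which was at least 1.5-fold lower in each knockdown (3.23%, beside 0.369% of all genes). Of the 31, 18 were lower in both (beside 29.6% of all genes), 0 were higher in both and 13 moved in opposite directions. In KD-2 6 were past 1.5-fold on the lower side (beside 6.79% of all genes), and the list's medians were -0.07 in KD-1 against -0.41 in KD-2.

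The changes that both knockdowns shared were counted first. At least 1.5-fold higher in each knockdown were 157 genes, 1.23% of the 12743, and at least 1.5-fold lower in each were 47 genes, 0.369%. Counting these shared genes too, KD-1 had 449 genes past this fold on the higher side and 579 on the lower side (4.54% of the 12743), and KD-2 had 1935 and 865 (6.79%). The shared counts move with the scaling, to 271 higher and 33 lower with library totals without abundant RNAs and to 137 and 61 with the size factors of DESeq2. Without a fold limit, 3220 genes were higher in both (25.3%), 3769 were lower in both (29.6%) and 5754 moved in opposite directions, and the median over all 12743 genes was -0.02 in each knockdown. The quasi-likelihood test of edgeR, fitted over all 21164 genes with a read, called 4 genes (0.0189%) at an adjusted p under 0.05, and 293 genes had an unadjusted p under 0.05. Other scalings and read minimums gave 2 calls or 0.

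Those 4 include Ipw, Taf7l and Lars2 of the 25 genes higher in both and none of the 25 genes lower in both. The same contrast chose the 25, so nothing is read from this count. The other call was Mir6236, which had 1229, 24133 and 1136 reads, and so was high in KD-1 alone. The test draws its spread from KD-1 against KD-2 with 1 residual degree of freedom. It has no measure of the spread between control libraries.

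Promoters of several germline genes higher in both knockdowns hold the E-box CACGTG, and their sequences are shown because these members share a role and, in part, these letters. They are RefSeq sequences of GRCm38.p6, 250 bases before to 50 bases after the start site, written 5′ to 3′ on the strand of the gene, with each CACGTG in capitals. Taf7l lies on the minus strand at chrX:134476441-134476740, Nxf2 on the minus strand at chrX:134964705-134965004, Sycp1 on the minus strand at chr3:102936051-102936350 and Adad2 on the plus strand at chr8:119612463-119612762. Tex101, on the minus strand at chr7:24672001-24672300, is given as a member of like role without the letters.
Taf7l: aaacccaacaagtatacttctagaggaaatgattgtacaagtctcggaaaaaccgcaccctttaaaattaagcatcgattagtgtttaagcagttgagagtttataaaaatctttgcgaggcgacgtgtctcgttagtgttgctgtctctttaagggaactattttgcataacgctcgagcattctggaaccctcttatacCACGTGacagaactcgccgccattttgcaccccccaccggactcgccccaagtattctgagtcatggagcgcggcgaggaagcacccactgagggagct
Nxf2: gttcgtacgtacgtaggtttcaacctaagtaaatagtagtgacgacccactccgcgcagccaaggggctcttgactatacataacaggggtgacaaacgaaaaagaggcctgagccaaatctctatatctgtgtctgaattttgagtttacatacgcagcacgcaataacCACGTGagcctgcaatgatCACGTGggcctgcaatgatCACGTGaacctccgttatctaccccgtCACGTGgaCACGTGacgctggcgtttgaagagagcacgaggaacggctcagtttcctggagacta
Sycp1: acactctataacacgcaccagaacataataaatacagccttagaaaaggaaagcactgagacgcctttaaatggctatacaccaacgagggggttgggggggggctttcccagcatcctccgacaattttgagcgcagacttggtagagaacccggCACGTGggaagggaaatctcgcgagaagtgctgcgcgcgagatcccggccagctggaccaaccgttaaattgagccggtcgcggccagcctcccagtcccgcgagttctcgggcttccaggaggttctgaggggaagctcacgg
Adad2: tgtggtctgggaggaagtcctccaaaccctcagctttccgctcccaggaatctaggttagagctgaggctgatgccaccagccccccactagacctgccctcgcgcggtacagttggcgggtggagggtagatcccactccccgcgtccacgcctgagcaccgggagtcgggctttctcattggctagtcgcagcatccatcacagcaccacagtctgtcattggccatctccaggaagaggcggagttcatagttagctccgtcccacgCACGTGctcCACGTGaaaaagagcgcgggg
Tex101: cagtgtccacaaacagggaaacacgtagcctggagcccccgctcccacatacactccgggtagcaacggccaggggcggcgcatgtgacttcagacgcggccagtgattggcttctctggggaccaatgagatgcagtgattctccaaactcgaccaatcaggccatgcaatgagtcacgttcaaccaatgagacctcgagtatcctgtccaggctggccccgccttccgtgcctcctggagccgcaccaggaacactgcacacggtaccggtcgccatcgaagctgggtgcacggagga

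The Nxf2 promoter shown carries 5 copies of CACGTG, which begin 80, 61, 42, 15 and 7 bases before its start site. Taf7l has 1 copy 49 bases before the start and Sycp1 has 1 copy 94 bases before it, whereas Adad2 has its 2 copies 20 and 29 bases after the start. Promoters were found in the table for 20 of the 25 genes higher in both and 21 of the 25 genes lower in both. CACGTG, which reads the same on both strands, was in 7 of those 20 (35.0%) and in 3 of those 21 (14.3%), beside 12% of all genes averaging 100 reads or more and 7.15% of all promoters in the table. The letters did not mark the shared genes in general, since over all genes at least 1.5-fold higher in both they were in 17 of 124 (13.7%), and over those lower in both in 5 of 37 (13.5%). A gene was counted where any of its promoters in the table held the letters, and Nxf2 and Mgll each have a further promoter without them. The 7 were Taf7l, Sycp1, Nxf2, Adad2, Mael, Mgll and Prss42.

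CACGTG holds 1 CpG dinucleotide itself, and the median promoter held 17.5 CpG for the genes higher in both, below the 22 for all genes averaging 100 reads or more. Among promoters with at least 10 CpG, 7 of 13 genes higher in both had CACGTG (53.8%), beside 16 of 87 (18.4%) of all genes at least 1.5-fold higher in both and 13.0% of genes averaging 100 reads or more. The other motifs searched on both strands were nearer to the background. TCACGTGA, which contains the E-box, was in 5.00% of the genes higher in both and 2.22% of genes with that mean. GCGGGA, the core letters of E2F sites, was in 35.0% and 40.1%, TATAAA was in 15.0% and 9.16%, and GGNGGCAG, a core of CTCF sites, was in 20.0% and 17.6%. A match is a run of letters and was not tested as a binding site.

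Of the 25 genes higher in both knockdowns, 5 were in the germline list described below (Taf7l, Tex101, Sycp1, Nxf2 and Mael). Taf7l, a germ cell counterpart of a TFIID subunit, had 225, 1241 and 1275 reads. Tex101, a surface protein of germ cells, had 34, 258 and 161 reads, and Sycp1, the central filament of the synaptonemal complex, had 303, 1417 and 784. Both knockdown libraries lay above control for each of them.
Taf7l was 4.65-fold higher in KD-1 and 5.40-fold higher in KD-2, a mean log2 change of 2.32 ± 0.15 (SD, n = 2). Tex101 changed more in KD-1 (6.33-fold) than in KD-2 (4.48-fold), and KD-1 set directly against KD-2 gave a ratio of 1.42 with a counting interval of 1.16 to 1.73. Sycp1 was 3.94-fold and 2.47-fold higher, and its ratio of KD-1 to KD-2 was 1.6 with an interval of 1.46 to 1.74, so for both genes these 2 libraries differed beyond counting error.

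Nxf2, a testis relative of the mRNA export factor NXF1, was nearly equal in both knockdowns. It had 108, 315 and 275 reads, which is 2.45-fold and 2.43-fold higher with a mean log2 change of 1.29 ± 0.012 (SD, n = 2). Nxf2 and Taf7l both lie on chromosome X, with 468 kb between them. Adad2, an RNA-binding protein of male germ cells, had 43, 116 and 150 reads and was 2.26-fold higher in KD-1 and 3.31-fold higher in KD-2. Mael, which acts in the piRNA pathway that silences transposons, had 324, 809 and 804 reads and changes of 1.07 and 1.24. Hist1h1t, the linker histone of spermatocytes, had 325, 1148 and 737 reads and changes of 1.57 and 1.11, and Prss42, a serine protease of the testis, had 64, 149 and 141 reads.

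Beyond these leading genes, 63 germline, meiosis and piRNA genes were followed as a list, of which 41 averaged 100 reads or more. At least 1.5-fold higher in each knockdown were 10 of the 41 (24.4%, beside 1.23% of all genes) and 2 were at least 1.5-fold lower in each (4.88%, beside 0.369%). The 10 were Taf7l, Tex101, Sycp1, Nxf2, Mael, Ddx4, Mov10l1, Slc25a31, Sycp2 and Tex19.2. The first 5 of these are among the 25 genes chosen by this same change, so their place in the count was fixed by the choice. Tex101 (34 reads) and Sycp2 (60 reads) were under 100 in control and met the read minimum through the knockdown libraries. A further 19 genes of the list were below that minimum. The share is therefore a description and no independent support. Ddx4, the germ cell RNA helicase Vasa, had 744, 1639 and 1631 reads, with changes of 0.89 and 1.07. Mov10l1, the helicase that feeds piRNA precursors into processing, had 317, 845 and 617 reads with changes of 1.17 and 0.89. For both genes both knockdown libraries lay above control.

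The list did not move as one. Its median was 0.37 in KD-1 against -0.11 in KD-2, beside -0.02 and -0.02 over all genes, with 19 genes higher in both, 14 lower in both and 8 opposite. The sign of the KD-2 median depends on the scaling, as it was 0.012 with library totals and 0.071 with totals without abundant RNAs. Dazl, a germ cell translation regulator, had 881, 3022 and 1070 reads, so it was high in KD-1 (1.53) and close to control in KD-2 (0.21). Tex19.1 was likewise higher in KD-1 (0.78) and not in KD-2 (-0.11). CACGTG was in the promoters of 7 of the 10 genes past the fold (70.0%) and in 4 of the 27 others of the list with a promoter (14.8%), where the 10 had been picked by their change. The germ cell markers (Ddx4, Dazl, Sycp3, Mael and Tex101) summed to 33.5 CPM in control, with 75.5 in KD-1 against 56.3 in KD-2. All 5 were higher in both, beside 19 of the 41 genes of the list and 25.3% of all genes, so these markers do not stand for the whole list. Mael and Tex101 are among the 25 chosen as higher in both, so their direction was fixed by the choice. Ddx4 is among the 10 genes past the fold, and Dazl was close to control in KD-2. In bulk RNA, more cells that express such genes and more RNA per cell cannot be told apart.

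Ipw headed the genes higher in both. Ipw is a paternally expressed long noncoding RNA of the Prader-Willi region, annotated at chr7:59619158-59678878, and had 237, 1443 and 1217 reads. It was 5.13-fold and 4.90-fold higher, a mean log2 change of 2.33 ± 0.047 (SD, n = 2), with counting intervals of 4.47 to 5.92 and 4.26 to 5.66 times control. The ratio of KD-1 to KD-2 was 1.05 with an interval of 0.970 to 1.13, which includes equal levels. Other genes of the region did not share this size. Of 6 genes of the Prader-Willi and Angelman locus list averaging 100 reads or more, only Ipw was past 1.5-fold in both (16.7%, beside 1.23% of all genes). Ipw was itself chosen by this change. The list's medians were 0.13 and 0.36. Of these 6, Peg13 is an imprinted gene of chromosome 15 and not of that locus.
Mkrn3 had 166, 227 and 267 reads with changes of 0.21 and 0.62, Ndn had 1072, 1071 and 1533 reads with changes of -0.25 and 0.45, and Ube3a had 12877, 14413 and 10941 reads with changes of -0.08 and -0.30.

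Ribosomal and other abundant RNAs formed a further group. Rn45s, the precursor of ribosomal RNA that the library kit depletes, had 583027, 2533951 and 1525879 reads. It took 0.806% of reads on genes in control, with 2.97% in KD-1 against 2.18% in KD-2. Lars2, annotated as the mitochondrial leucyl-tRNA synthetase, had 18671, 464039 and 40743 reads and was 21.0-fold higher in KD-1 and 2.08-fold in KD-2, the widest gap between the knockdowns among the 50 genes. How far depletion of ribosomal RNA differed between the libraries was not tested. In a list of 18 abundant structural and Pol III RNAs, Rn45s and Lars2 alone were past the fold in both (11.1%, beside 1.23% of all genes). Both are among the 25 genes chosen by this change. Lars2 is annotated as protein coding, so its place on that list does not follow from its annotation. Rmrp, the RNA of RNase MRP, took 0.416%, 0.533% and 1.55% of reads and Rpph1, the RNA of RNase P, took 0.402%, 0.437% and 1.40%, so these 2 were high mainly in KD-2.

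Mir6240 was counted within its hairpin of 117 bases at chr5:114851948-114852064 (plus strand), in libraries that were not made from small RNA, and the reads therefore do not measure the mature miRNA. It had 126, 791 and 461 reads, or 14.9, 79.3 and 56.4 RPKM. Its changes of 2.40 and 1.80 are of the order seen for Rn45s (1.87 and 1.32), with KD-1 above KD-2 in both. The mature sequence in RefSeq is shown with the seed, bases 2 to 8, in capitals, and 0 other members are miRNAs.
Mir6240 mature: cCAAAGCAucgcgaaggcccacggcg

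The remaining genes higher in both had varied roles, and most were low in control. Cidea, a lipid droplet protein of brown fat, had 35, 181 and 104 reads, with changes of 2.11 and 1.49. Plxnd1, a semaphorin receptor of endothelium, had 173, 476 and 465 reads and was 2.32-fold and 2.56-fold higher. Cyp2f2, a cytochrome P450 of airway cells, had 238, 638 and 714 reads and was 2.26-fold and 2.86-fold higher. Each of these had both knockdown libraries above control, and for Plxnd1 and Cyp2f2 the larger change was in KD-2.
Sh3rf2, a RING and SH3 domain protein, had 51, 137 and 136 reads and changes of 1.17 and 1.34. The other members, among them Crygd (a lens crystallin), Ntrk3 (the receptor of neurotrophin-3), Mgll (monoacylglycerol lipase) and Cd209c (a C-type lectin), had a smaller change of 0.97 to 1.12. The same range holds for Plekho1, Oit1, Trank1, Gm5622 and Gm8267. Of the 50-base stretches of Gm8267 55.1% also occur in other transcripts, of Gm5622 41.2%, of Crygd 19.7% and of Cd209c 15.7%, and their reads are uncertain to that degree.

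Low counts limit several of these values. Control was below 100 reads for 10 of the 25 genes higher in both, which met the read minimum through the knockdown libraries, and the median of their control level was 0.719 RPKM, beside 4.81 for all genes with that mean. At the limit of the choice, Prss42 was the last gene taken, with changes of 0.97 and 1.07, and B930041F14Rik was the first left out, with 258, 590 and 550 reads and changes of 0.95 and 1.02. The counting interval of Prss42 in KD-1 was 1.46 to 2.68 times control. KD-1 had the larger change in 15 of the 25 genes.

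Among the genes lower in both, those of the Rhox cluster stood together. The Rhox genes are reproductive homeobox genes on chromosome X that are expressed in germ cells, gonads and placenta. Rhox10 had 227, 128 and 91 reads, with changes of -1.07 and -1.38. Rhox6 had 1517, 917 and 556 reads with changes of -0.97 and -1.51, and Rhox9 had 1211, 773 and 445 reads with changes of -0.89 and -1.51. All 3 were lower in KD-2 than in KD-1, and the gaps between them are at most 237 kb.
Of the Rhox6 transcript, 16.5% of its 50-base stretches are also found in Rhox9, so reads of the 2 genes are in part shared or lost. Not every Rhox gene was lower. Rhox5 had 8652, 14411 and 10566 reads with changes of 0.49 and 0.22, and Rhox13 had 172, 318 and 231 reads with changes of 0.64 and 0.36. Rhox6 and Rhox9 were also the only 2 of 10 trophoblast genes past the fold in both on the lower side (20.0%, beside 0.369% of all genes). Of the 10, 4 were lower in both, 1 was higher in both and 5 were opposite, with medians of 0.0060 and -0.21, where the first was -0.043 with the size factors of DESeq2. The 5 trophoblast markers summed to only 83, 167 and 158 reads, and 4 of them were higher in both.

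Chromosome X held 6 of the 25 genes lower in both (Rhox10, Rhox6, Rhox9, 4930502E18Rik, D330045A20Rik and Reps2) and 2 of the 25 higher in both. Of 508 genes on X averaging 100 reads or more, 11 were at least 1.5-fold lower in each knockdown (2.17%), beside 36 of 12195 autosomal genes (0.295%). On the higher side the shares were 1.18% and 1.22%. The median change over genes of X was -0.04 in KD-1 against -0.27 in KD-2, while that of autosomal genes was -0.01 in both, so X genes as a group were lower in KD-2. With library totals without abundant RNAs the medians of X were 0.0080 and -0.092 and those of autosomal genes 0.038 and 0.17. What the level of X as a whole adds to the 6 genes was not tested.
4930502E18Rik, also named Ct55, a cancer and testis antigen, had 316, 194 and 156 reads. D330045A20Rik, also named Radx, which acts at replication forks, had 464, 288 and 226 reads. Their changes were -0.95 and -1.08 for the first and -0.93 and -1.10 for the second, close to equal in both knockdowns.

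Gpx2 and Bche had the largest shared changes on the lower side. Gpx2, a glutathione peroxidase of epithelia, had 273, 128 and 94 reads, with changes of -1.33 and -1.60. Bche, the enzyme butyrylcholinesterase, had 793, 386 and 276 reads, with changes of -1.28 and -1.59. In both genes KD-2 lay below KD-1 and both lay below control.
Calb2, the calcium-binding protein calretinin, had 189, 76 and 97 reads with changes of -1.55 and -1.02, and was 1 of 5 genes with the larger change in KD-1. Mboat1, an acyltransferase of phospholipids, had 413, 250 and 229 reads with changes of -0.97 and -0.92. KD-2 had the larger change in 20 of the 25 genes lower in both.

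Some genes with a role in interferon or antiviral responses were among those lower in both. Herc6, a ubiquitin ligase induced by interferon, had 492, 283 and 208 reads, with changes of -1.04 and -1.31. Slfn9, of the Schlafen family, had 1308, 794 and 571 reads with changes of -0.96 and -1.26, and its neighbour Slfn8, 10.3 kb away, was also past 1.5-fold in both. Ddx60, a helicase of antiviral sensing, had 271, 176 and 166 reads. Of 36 interferon-stimulated genes on the list averaging 100 reads or more, 12 were lower in both (beside 29.6% of all genes), 2 higher in both and 22 opposite. Herc6 was the only 1 of the 36 past the fold in both (2.78%, beside 0.369% of all genes). Slfn9, Slfn8 and Ddx60 are not on that list and are not in this count. The list's median was -0.98 in KD-1 against 0.11 in KD-2, and 22 of the 36 were at least 1.5-fold lower in KD-1 (beside 4.54% of all genes), against 2 in KD-2 (beside 6.79%). Usp18, which damps interferon signalling, had 333, 22 and 297 reads, which shows this split.

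Several highly expressed genes were also among those lower in both. Trh, the precursor of thyrotropin-releasing hormone, had 158182, 108967 and 74305 reads, or 1580, 923 and 769 RPKM. Idi1, an isomerase of the cholesterol pathway, had 12152, 6745 and 7116 reads with changes of -1.09 and -0.84. 2810417H13Rik, also named Pclaf, a partner of the replication clamp PCNA, had 4492, 2965 and 1877 reads. Magohb, a subunit of the exon junction complex, had 3411, 2345 and 1568 reads. These 4 were well covered in every library, and their order from control to KD-1 to KD-2 held except for Idi1, where KD-2 was the higher knockdown.
Parts of 2 of these transcripts are not unique. In all, 26.8% of the 50-base stretches of Magohb and 25.3% of those of Idi1 also occur in other transcripts, and reads on these stretches may be missing or shared.

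Idi1 belongs to a list of cholesterol synthesis genes, which was counted whole. Of 24 genes on that list, 17 were lower in both (beside 29.6% of all genes), 1 was higher in both and 6 moved in opposite directions. Only Idi1 was past 1.5-fold in both (4.17%, beside 0.369% of all genes), while 3 were past it on the lower side in KD-1 (beside 4.54%) and 5 in KD-2 (beside 6.79%). Ebp had 5806, 4089 and 4241 reads with changes of -0.75 and -0.52, and Insig1, the sterol sensor partner of SCAP, had 18123, 14781 and 13442 reads with changes of -0.54 and -0.50. The list's medians were -0.27 in KD-1 against -0.34 in KD-2, beside -0.02 and -0.02 for all genes.

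At the limit on the lower side, Hmha1 (also named Arhgap45) was the last gene taken, with 717, 517 and 423 reads and changes of -0.72 and -0.83. Myl7 was the first left out, with 705, 513 and 261 reads and changes of -0.70 and -1.50. The genes from Ano9, an anoctamin, at rank 13 to Hmha1 had a smaller change of -0.86 to -0.72, among them Aldoc (aldolase C), Ap1m2 (an adaptor subunit of epithelia), Reps2 (an endocytosis protein), Lad1 (an anchoring filament protein), Krtdap (a keratinocyte protein) and Lck (a Src family kinase). Lck overlaps Mir8119 on the same strand, and 0 of the 25 genes higher in both overlap the exons of another gene. The median control level of the 25 was 2.57 RPKM, and 4 had fewer than 100 reads in at least 1 knockdown library.

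Other lists had from 0 to 2 genes past 1.5-fold in both knockdowns on either side. Of 25 pluripotency genes, 2 were past 1.5-fold and higher in both (8.00%, beside 1.23% of all genes), namely Utf1 with 127, 240 and 308 reads and Nr0b1 with 5325, 9913 and 8651, and 0 were past the fold on the lower side in both. In KD-2 5 of the 25 were past it on the lower side (beside 6.79% of all genes) and in KD-1 0 were (beside 4.54%), and the medians were 0.17 and -0.27. Pou5f1 had changes of 0.10 and -0.17 and Sox2 of -0.20 and -0.27, so these 2 stayed within 1.5-fold of control. Of 8 Zscan4 and 2-cell-like genes with that mean, 5 were past the fold on the higher side in KD-1 (beside 449 of all 12743). A further 16 were below the read minimum. The medians were 1.77 in KD-1 against 0.24 in KD-2, with 5 genes higher in both, 1 lower in both and 2 opposite. Zscan4d alone (35, 261 and 70 reads) was past the fold in both (12.5%, beside 1.23% of all genes). Pou5f1 encodes OCT4, and with SOX2 it holds the pluripotent state. Among CTCF, cohesin and loader genes, 0 of 15 were past the fold in either direction in both, while 10 were lower in both (beside 29.6% of all genes). The medians of that list were -0.03 and -0.40, and the first turned to 0.022 with library totals without abundant RNAs.
Of 56 replication-dependent histone genes only Hist1h2aa, a histone of the testis, was past the fold in both (1.79%, near the 1.23% of all genes), with 1973, 4010 and 6138 reads, and the list's medians were 0.04 in KD-1 against 1.21 in KD-2. Hist1h2aa lies 238 kb from Hist1h1t, which was also past the fold in both but is not on that list, so it is not in the count. Eomes, a T-box factor of mesendoderm, had 249, 463 and 406 reads with changes of 0.65 and 0.64. It was the only 1 of 9 mesendoderm genes past the fold in both (11.1%, beside 1.23% of all genes). The list itself leaned the other way, with medians of -0.13 and -0.56. Of the 9, 5 were lower in both (beside 29.6% of all genes) and 3 higher in both (beside 25.3%), and 4 were past the fold on the lower side in KD-2 (beside 6.79%). Fibroblast and feeder cell genes had 0 of 34 past the fold in both in either direction, with 32 moving in opposite directions.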

How the data were processed

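RNA-Seq counts of control, NUP153 KD-1 and NUP153 KD-2 mouse ES cells were used. According to the methods and the submitters' processing notes, the authors trimmed reads with Trim Galore 0.4.1, mapped them to mm10 (GRCm38) with TopHat2 2.1.1, kept reads of high mapping quality and counted them per gene. The deposited values are raw counts per gene without normalization, and 5 summary lines (23.5% of reads in control, with 25.6% in KD-1 against 23.0% in KD-2) were left out. The methods name featureCounts and the notes HTSeq, strand is not given in the sources used here, and reads of near-identical copies can be lost. The spike-in based correction of the study was not used here.

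Counts were scaled with TMM in edgeR 4.0.16 (R 4.3.3). Both knockdowns were compared to control with the edgeR quasi-likelihood test and Benjamini-Hochberg adjustment, called at an adjusted p under 0.05 and a fold above 1.5. DESeq2 1.42.0 was an alternative. Everything else is a description with no test, and counting intervals of 95% cover counting error only, not PCR duplication. The first 12 members of each direction were given values in every library, the others by role, list or limit, and up to 4 genes per list. Members and lists were chosen with earlier results of these data known. Positions and promoters are from RefSeq GRCm38.p6 (23201 genes matched by symbol, 1095 by an older one), and exon lengths from GENCODE models of mm10. Python 3.11.15, pandas 2.3.3, numpy 2.4.6, scipy 1.17.1 and matplotlib 3.10.9 were used.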

Additional observations from a re-analysis of the deposited data

Results flagged for a closer look

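Fibroblast and feeder cell markers moved in opposite directions in the 2 knockdowns, with a median log2 change of -0.61 in KD-1 against 0.83 in KD-2 over 34 genes, and this difference was not tested. Reads that fell outside annotated genes made up 24.1% of all reads in KD-1, beside 21.8% in control and 21.5% in KD-2, and these reads enter no comparison.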

How the results depend on the processing

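The quasi-likelihood test called 4 genes, and as many with no fold limit or a fold above 2. It called 2 with upper-quartile normalization, 2 with the size factors of DESeq2, and 2 genes were called by the Wald test of DESeq2 (82 at an unadjusted p under 0.05). It called 0 with library totals (262 at an unadjusted p under 0.05), 0 with a mean of at least 10 reads (190) and 0 with a mean of at least 100 reads (84). Without either knockdown no residual degree of freedom remains, so no call was made.

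The counts past 1.5-fold in each knockdown, 157 higher and 47 lower, became 619 and 161 with a mean of at least 10 reads, 66 and 30 with a mean of at least 300 reads, 1500 and 803 with no minimum, and 24 and 6 at a fold of 2. With library totals taken without the abundant RNA list, an alternative chosen after seeing the data, they were 271 and 33, and with the size factors of DESeq2 137 and 61. Higher genes were 89.1% of the genes past the fold with those totals, against 77.0% with TMM and 65.1% with no minimum, and the median of all genes shifted to 0.04 in KD-1 against 0.16 in KD-2. Leaving out each knockdown in turn gave 449 to 1935 higher and 579 to 865 lower, and the majority turned, since higher genes were 43.7% of those past the fold without KD-2 and 69.1% without KD-1. No member reversed under any alternative, and 231 of 300 values moved less than the spread between the knockdowns. Of 300 list counts, 238 kept their size and none reversed. Of 200 list medians under other scalings 12 changed sign, as did 5 of 16 medians of X and autosomal genes, with a size of at most 0.17 on either side. Of the 25 genes in each direction, from 23 to 25 stayed among the leading 25 under the other scalings and the pseudocount of 5. No paired analysis was possible because the control has 1 library and the labels give no replicate number that ties it to a knockdown.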
